A study of Mus musculus with 43 samples.

Results

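Immunoglobulin variable segments are the gene pieces that encode most of an antibody's antigen-binding region. This account follows the 172 segments that were counted at least 40 times in all over the 8 libraries of control CD45.1+ marrow cells, out of 348 variable segment entries among 56941 counted gene identifiers. Of these 172 members, 88 belong to the heavy chain, 81 to the kappa light chain and 3 to the lambda light chain, out of 185, 160 and 3 entries, and all but 4, which are pseudogenes, are annotated as functional. The members were thus chosen by their counts in the control cells, so every comparison with the control CD45.1+ cells is given as a description. The members just inside the minimum were Ighv1-20 with 44 counts, Ighv5-15 with 42 and Igkv12-38 with 40, and the segments just outside it were Ighv15-2 with 38, Igkv8-18 with 37 and Ighv2-6-8 with 33.

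The libraries came from bone marrow of wild-type CD45.1 mice, some of which had received 5000000 whole marrow cells of JAK2V617F, CD45.2 donors about 7 months earlier without conditioning, that is, without irradiation or drugs to make room for the graft. JAK2V617F is the activating kinase mutation found in most myeloproliferative neoplasms. Control CD45.1+ cells came from 8 untransplanted mice (4 female, 4 male), and host cells (CD45.1+) and donor cells (CD45.2+) came from the same 7 transplanted mice (3 female, 4 male). Stroma, sorted as cells without CD45.1 or CD45.2 and depleted of T cells (CD4, CD8), B cells (B220), myeloid cells (CD11b, Ly-6G/Ly-6C), natural killer cells (NK1.1) and erythroid cells (Ter119), came from 8 control and 7 transplanted mice, which were the same animals. A separate set of CD45.1+ CD11b+ cells came from 3 control and 3 transplanted male mice, 52 weeks after transplantation. Transplanted and control mice were matched for age and sex, and no group received normal marrow. All host, control and CD11b+ cells are therefore wild type, and only the donor cells carry JAK2V617F. One donor library, that of mouse N204, is called donor in its title but recipient-derived in another label. It was kept in the donor group by its title, and values without it are given for the share, diversity, constant-region ratio and counts of members called.

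Each B cell joins 1 heavy variable segment to a diversity and a joining segment, and 1 light variable segment directly to a joining segment, so that a B-cell clone and the plasma cells made from it carry the same pair. Many clones together give RNA from many segments at low, even shares, whereas a few plasma cells, each very rich in immunoglobulin RNA, can fill a library with a few segments. In mouse, kappa light chains greatly outnumber lambda chains. In the GENCODE M21 annotation, on the GRCm38 build, the heavy members span 113578504 to 116000461 on chromosome 12, all 88 on the minus strand. The kappa members span 67609713 to 70704177 on chromosome 6, with 31 on the plus strand and 50 on the minus strand. The 3 lambda members lie between 19085017 and 19260859 on chromosome 16. These positions are for orientation, since the deposited counts were made on GRCm39.

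The sequences below are the last 90 bases of 8 members, 5′ to 3′ in the coding sense, from the GENCODE M21 transcripts, and the capitals mark the cysteine codon near the 3′ end of the segment, just before the joint with the next segment. Igkv17-127 and Ighv8-8 are shown because they led the CD45.1+ library of 1 control mouse, Igkv6-14 and Ighv5-9-1 because they led 1 donor library, and Igkv6-15 because it held the largest share of any library. Ighv1-41 is a pseudogene whose level did not follow the summed level of the other members, and Iglv1 and Iglv2 are the leading lambda segments.
Igkv17-127: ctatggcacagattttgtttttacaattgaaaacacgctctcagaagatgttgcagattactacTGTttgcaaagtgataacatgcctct
Ighv8-8: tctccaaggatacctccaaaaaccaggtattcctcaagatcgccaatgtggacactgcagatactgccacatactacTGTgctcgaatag
Igkv6-14: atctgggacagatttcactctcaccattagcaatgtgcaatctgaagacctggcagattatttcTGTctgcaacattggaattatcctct
Ighv5-9-1: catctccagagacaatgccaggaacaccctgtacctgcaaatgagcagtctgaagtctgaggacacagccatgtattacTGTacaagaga
Igkv6-15: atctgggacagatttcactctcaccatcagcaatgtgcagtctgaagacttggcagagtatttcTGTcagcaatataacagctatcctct
Ighv1-41: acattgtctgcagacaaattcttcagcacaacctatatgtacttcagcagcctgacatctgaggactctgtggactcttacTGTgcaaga
Iglv1: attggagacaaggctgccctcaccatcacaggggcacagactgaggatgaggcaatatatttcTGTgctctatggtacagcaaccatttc
Iglv2: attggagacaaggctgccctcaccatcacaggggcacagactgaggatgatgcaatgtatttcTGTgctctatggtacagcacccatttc

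The segments resemble each other closely. The median identity of a member to its nearest other segment was 95.35%, 15 of the 172 members were at least 98% identical to another segment, and 2 were identical to one. Iglv1 and Iglv2 were 97.4% identical, and Ighv1-41, whose nearest segment is Ighv1-29, was 88.0% identical to it. Reads from near-identical segments may have been split or shared between them in the authors' counting, and antibody RNA can carry somatic mutations, so the count of 1 segment is less certain than the total.

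The variable segments together took a small and group-specific share of each library. In the control CD45.1+ libraries the share ran from 0.0965% to 0.179% of all counts, with a median of 0.111%. Host libraries ran from 0.0361% to 0.114% with a median of 0.0748%, and donor libraries from 0.000767% to 0.00383% with a median of 0.00226%. In host cells 6 of the 7 values lay below every control value and that of mouse N032 lay among the controls, whereas all 7 donor values lay below every host and every control value. The means were 0.120% ± 0.0267 (SD, n = 8) in control cells, 0.0750% ± 0.0236 (SD, n = 7) in host cells and 0.00217% ± 0.00114 (SD, n = 7) in donor cells. The control mean was 1.602 times the host mean and 55.4 times the donor mean, and the host mean was 34.6 times the donor mean. In bulk libraries such as these, fewer cells of a type and less RNA per cell cannot be told apart.

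**Figure D1:**
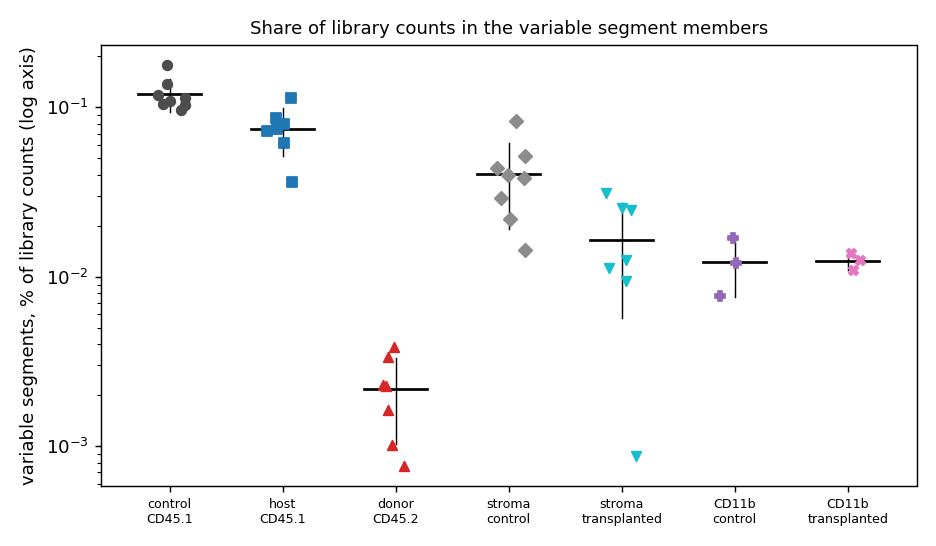
Share of each library's counts that fell in the 172 variable segments, in percent on a log axis, 1 point per library, with group means as horizontal bars and vertical bars of 1 SD. The 7 donor libraries lie between 0.000767% and 0.00383%, under all host and control libraries, and 1 stroma library of a transplanted mouse, N269, lies at 0.000870%.

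Depth sets how much of this can be read. Total counts ran from 15713119 to 19683698 per library in the control, host and donor cells, from 41210646 to 143228988 in stroma and from 32478800 to 44853593 in CD11b+ cells. The members themselves gave 16276 to 31337 counts in a control library and 6560 to 20695 in a host library, but only 151 to 660 in a donor library. Of the 172 members, 166 were counted in every control library and 154 in every host library. In donor cells 6 were counted in every library, 82 in at most 2 libraries and 22 in none.

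Within a transplanted mouse the 2 sorts could be set side by side. The donor level of the members was 4.80% of the host level of the same mouse in N005, 4.51% in N204, 3.69% in N203, 3.18% in N014, 2.12% in N269, 1.87% in N279 and 0.893% in N032. All 7 mice showed the same direction, though over a wide range. The level of Igkc, the kappa constant gene, was 0.720% to 3.84% of that in host cells, and that of Jchain, which joins secreted IgM and IgA, was 0.557% to 4.56%. Ighm, the constant gene of IgM, stood higher at 7.06% to 17.6%, and Cd79a, a signalling partner of the B-cell receptor, at 2.44% to 14.3%. Cd3e, a T-cell receptor chain, was at 0 to 6.02% of the host level, so a T-cell gene was reduced in the donor libraries as well. Without N204 the mean donor share was 0.0262 of the host mean, against 0.0289 with it.

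All 3 chains were lower in donor cells. Heavy segments summed to 286.6 to 647.4 CPM (counts scaled to a library of 1000000) in control libraries, 146.9 to 465.1 in host libraries and 3.76 to 18.5 in donor libraries. Kappa segments summed to 547 to 1106 CPM in control, 198.3 to 629 in host and 3.10 to 19.5 in donor libraries, and lambda segments to 32.1 to 85.2, 16.2 to 41.03 and 0.348 to 1.59 CPM. The balance of the chains shifted. Heavy segments made up 37.1% ± 4.08 (SD, n = 8) of member counts in control cells, 40.2% ± 0.894 (SD, n = 7) in host cells and 47.4% ± 3.55 (SD, n = 7) in donor cells, and every donor value, from 43.2% to 54.1%, lay above every host and control value. The donor library N204 lay within that range at 44.5%. The ratio of kappa to lambda counts was 7.14 to 32.8 in control cells, 9.61 to 19.8 in host cells and 3.81 to 56.0 in donor cells, so the groups overlapped.

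The variable counts were then set against the constant-region counts of the same libraries, since one functional antibody transcript holds both. Per constant-region count there were 0.380 ± 0.0236 (SD, n = 8) member counts in control cells and 0.383 ± 0.0155 (SD, n = 7) in host cells. Donor cells had 0.162 ± 0.0546 (SD, n = 7), with every library from 0.0846 to 0.225 below every control and host library. The kappa ratio did not share this shift. Kappa segments per Igkc count averaged 0.777 in control, 0.770 in host and 0.771 in donor cells. Heavy segments per heavy constant-region count averaged 0.203 in control, 0.218 in host and 0.0877 in donor cells, where they ran from 0.0438 to 0.119. In the 3 donor libraries with at least 20 lambda constant-region counts the lambda ratio averaged 0.479. The low donor value thus lay mainly in the heavy chain, whose most abundant constant gene, Ighm, was the least reduced of the constant-region genes tested in donor against host cells. Without N204 the donor mean was 0.396 of the host mean, against 0.424 with it.

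Diversity was measured as the effective number of segments (inverse Simpson index), the number of equally used segments that would give the same concentration of counts. It ran from 23.9 to 65.4 in control libraries (median 40.8), from 44.3 to 76.1 in host libraries (median 61.5) and from 16.8 to 55.4 in donor libraries (median 32.7). Host values reached above all controls in 3 of 7 mice, and the ranges of all 3 groups overlapped. The means were 43.0 ± 14.5 (SD, n = 8), 61.2 ± 12.6 (SD, n = 7) and 34.3 ± 15.7 (SD, n = 7). The host mean was 1.42 times the control mean over all members and 0.9592 of it over the lambda segments alone. With only 3 lambda members, most of whose counts fell in Iglv1, the lambda number has little room to differ between groups. Without N204 the donor mean was 0.5657 of the host mean, against 0.5611 with it, and 0.8053 of the control mean, against 0.7988. The largest single segment held 3.98% to 14.1% of member counts in control libraries, 3.41% to 7.22% in host libraries and 6.22% to 15.8% in donor libraries.

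Because donor libraries held few member counts, the number of different segments was also put on an equal footing. In 500 member counts, 110.9 ± 6.64 (SD, n = 8) segments were expected in control libraries and 114.7 ± 8.05 (SD, n = 7) in host libraries. The 2 donor libraries with as many counts, N005 and N204, gave 78.5 and 79.4, below every control and host value. In 100 member counts, which all 7 donor libraries had, the expected number was 42.9 ± 8.85 (SD, n = 7) in donor, 52.8 ± 4.04 (SD, n = 8) in control and 56.8 ± 3.87 (SD, n = 7) in host cells. At that size the ranges of donor cells, from 31.9 to 54.9, and control cells, from 45.8 to 58.0, overlapped.

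**Figure D2:**
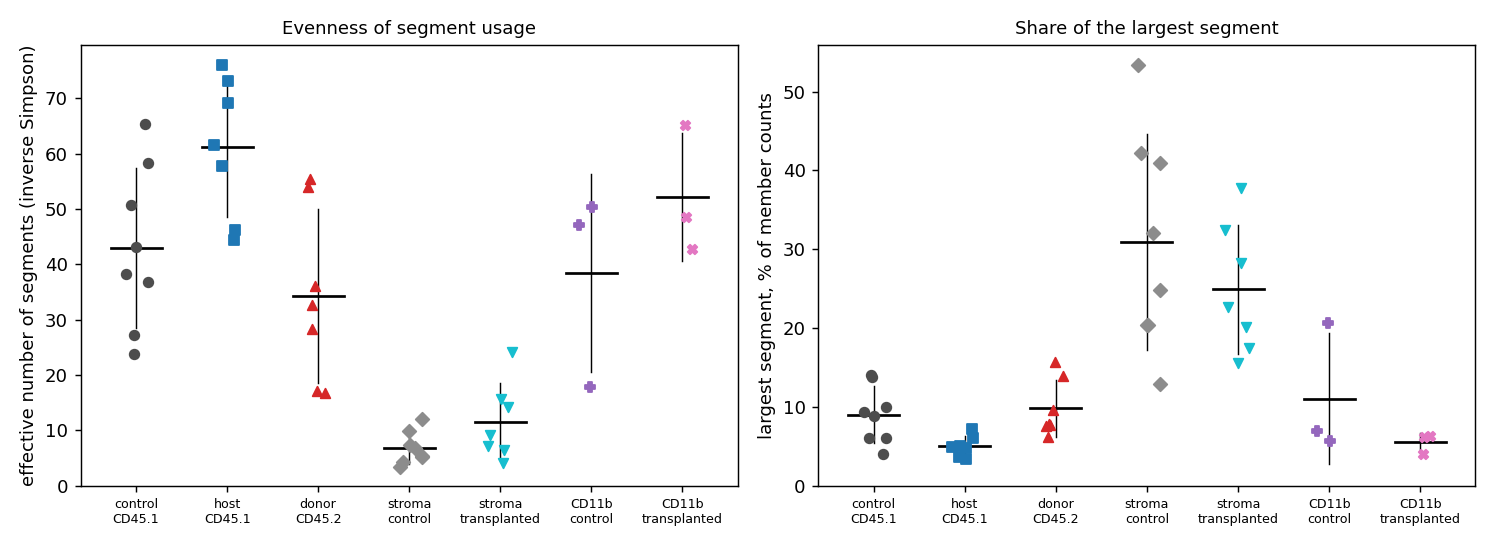
Effective number of segments (left, inverse Simpson index) and percent of member counts in the largest segment (right), 1 point per library, with group means as horizontal bars and vertical bars of 1 SD. Stroma libraries have 3.32 to 24.2 effective segments and a largest segment of 12.9% to 53.4%, while host libraries have 44.3 to 76.1 effective segments.

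The most abundant members are compared here on the deposited TPM values, which account for transcript length and sum to the same total in every library. In control cells Igkv5-39 averaged 224 TPM ± 249 (SD, n = 8) and Iglv1 averaged 221 ± 97.6. Next came Igkv19-93 at 173 ± 175, Igkv3-4 at 161 ± 167, Igkv14-126 at 149.8 ± 80.9 and Igkv4-55 at 139 ± 58.5. The last 4 of the leading 10 were Igkv17-127 at 134 ± 310, Igkv1-117 at 126 ± 102, Igkv10-96 at 123 ± 35.7 and Ighv8-8 at 117 ± 238. Nearly all of the 10 are kappa segments, with 1 lambda and 1 heavy segment among them, and neighbours in this order did not differ beyond their spread. For several the SD exceeded the mean, because 1 or 2 mice carried most of the counts. In host cells the same 10 averaged 23.5 TPM (Igkv17-127) to 144 TPM (Iglv1). By family, the 47 Ighv1 members, the largest group of mouse heavy segments, took 20.6% ± 3.20 of member counts in control, 21.1% ± 1.24 in host and 23.7% ± 5.85 in donor cells. Across the 172 members, mean usage correlated between control and host cells with a Spearman coefficient of 0.886, between control and donor cells with 0.602 and between host and donor cells with 0.673. These are descriptions across segments, which share libraries and depth.

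Host against control cells compares the segment RNA of wild-type CD45.1+ marrow between transplanted and untransplanted mice. As no group received normal marrow, an effect of the JAK2V617F graft cannot be told apart from one of transplantation itself. Of the 149 members that passed the filter on low counts, 22 were lower in host cells and 0 were higher (edgeR quasi-likelihood test, Benjamini-Hochberg adjusted p under 0.05 over all genes). In this comparison 16.4% of all genes tested passed, 7.82% as lower and 8.61% as higher. The 22 comprised 9 heavy, 10 kappa and all 3 lambda segments. The median log2 fold change of the 149 was −0.57, beside 0.01 over all genes tested. Of all 172 members 142 had a lower mean in host cells and 30 a higher one, but in 0 of 172 did the ranges of the 2 groups separate, against 0.554% of all genes tested with ranges apart and lower and 1.52% with ranges apart and higher. The count of 22 fell to 12 without host library N014 and to 13 without N005, where 1527 of 14159 and 1749 of 14180 genes passed.

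All 3 lambda segments, which serve the minor light chain, were lower in host cells. Iglv1 was counted 386 to 1286 times in control libraries and 195 to 601 times in host libraries, which edgeR put at a log2 change of −0.76 ± 0.22 (SE; adjusted p = 0.0235). Iglv2 was lower by −0.70 ± 0.17 (edgeR adjusted p = 0.0109), and Iglv3 by −1.05 ± 0.30 (edgeR adjusted p = 0.0235). The ranges overlapped for all 3, and Iglv1 did not pass without host library N014, at −0.67, or without the sex term, at −0.72, nor Iglv3 without host library N204, at −0.95.

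The members with the lowest fold changes rested more on single mice. Igkv1-88 was counted 11 to 1912 times in control libraries and 5 to 31 times in host libraries, a log2 change of −3.60 ± 1.09 (SE) with an edgeR adjusted p of 0.0326. Ighv5-16 was counted 26 to 1347 times in control and 8 to 125 times in host libraries, with −2.32 ± 0.77 (edgeR adjusted p = 0.0496). The highest values of both came from control mouse N093. Without that mouse the log2 fold changes were −1.68 and −1.30 and neither passed, and both calls were also lost without several other single libraries. With the day of euthanasia as a blocking factor they stood at −1.26 and −1.44 and did not pass. That fit had no sex term and kept only libraries from days found in both groups. It thus left out N093 too and is not a separate check. Igkv8-27, at −1.92 ± 0.57 (edgeR adjusted p = 0.029), was highest in control mouse N277 and did not pass without it, at −1.38, nor without several other single libraries.

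Steadier calls were found for the sparse heavy segments Ighv12-3 and Ighv8-10. Both kept their call in every alternative in which they were tested, 12 for Ighv12-3 and 20 for Ighv8-10. Other settings left Ighv12-3 untested, and its highest control level was that of mouse N288. Ighv12-3 was counted 8 to 71 times in control and 2 to 8 times in host libraries, so the groups touched at 8 counts, and the log2 change was −2.11 ± 0.44 (SE) with an edgeR adjusted p of 0.00443. The pseudogene Ighv8-10 was counted 10 to 41 times in control and 3 to 14 times in host libraries, with −2.08 ± 0.38 (edgeR adjusted p = 0.00202). Ighv1-4 completed the 6 lowest at −1.61 ± 0.53 (edgeR adjusted p = 0.0458), a call lost without host library N005 and without several other single libraries. No member passed as higher in the test as designed. Without a filter on low counts 3 passed as higher, and without host library N203 or N269 2 did. The 3 with the smallest p in that direction were Igkv6-20 at 1.32 (edgeR adjusted p = 0.0932), which had 1495 counts in host mouse N032 and 17 to 674 in the other host mice, Igkv3-2 at 0.88 (adjusted p = 0.097) and Ighv14-4 at 1.23 (adjusted p = 0.101).

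Other genes of the B lineage were lower in host cells too. Of 12 tested constant-region and joining-chain genes, 7 were lower and 0 higher, with a median log2 fold change of −0.86. Among these, Ighd, the constant gene of IgD on naive B cells, was lower by −1.51, Jchain by −0.97, Iglc2 by −0.92 and Ighm by −0.92, whereas Ighg2c (0.69) and Ighg2b (0.30), constant genes of switched IgG classes, did not pass (edgeR adjusted p = 0.231 and 0.465). Of 13 recombination and early B-cell genes 12 were lower, among them Pax5, the B-lineage commitment factor (−1.39), and Vpreb3 (−1.50), and all 12 mature B-cell genes were lower (median −1.42). Of 10 octamer-binding and related transcription factors 5 were lower, including Spib (−1.41) and the coactivator Pou2af1 (−1.31). Of 15 plasma cell genes 4 were lower, among them Mzb1 (−1.32) and Irf4 (−1.27), and the median was −0.10. None of 6 hypermutation and switching genes and none of 6 T-cell markers passed.

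By group, the RNA of B-cell markers fell in the same order as that of the segments. The summed level of 7 B-cell markers was 264.8 to 837.5 CPM in control, 91.1 to 390.9 in host and 10.9 to 34.3 in donor libraries, with all 7 detected in each group, and that of 6 macrophage markers was 103 to 140.4, 143 to 232 and 134 to 197 CPM. Their part in the fold changes of single segments was not tested. The total did not track the marker sum closely in single mice. Control mouse N277 had 1041 CPM of members with a marker sum of 264.8, and control mouse N051 had 1036 CPM with 837.5.

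Donor cells were compared with the control cells and, in the same mice, with host cells. Against control, 130 of the 133 members that passed the filter were lower in donor cells and 0 higher (edgeR, adjusted p under 0.05), in a comparison in which 45.7% of all genes passed, 23.0% as lower and 22.7% as higher. The median log2 fold change was −5.91. Over all 172 members, ranges were apart and lower for 150, against 9.05% of all genes tested, and apart and higher for 0, against 5.11%. Against host cells, whose counts took no part in choosing the members, 92 of 95 were lower and 0 higher, where 14.1% of all genes passed, 9.94% as lower and 4.17% as higher, and the median was −5.30. Here ranges were apart and lower for 126 of 172 members, against 3.59% of all genes, and apart and higher for 0, against 0.476%. The test against host cells did not pair the libraries by mouse. With the mouse as a block, 93 of 95 members were lower, and 4605 of 13662 genes passed. A member that passed the filter only through the host or control libraries had to differ, so these counts describe the members and support nothing further. Without N204, 133 members were lower than in control cells, and all but 4 of 120 tested were lower than in host cells. Over all genes 6314 of 14008 and 2057 of 13852 passed in these 2 comparisons. Without donor library N005 the counts of members were 136 and 120, with 6136 of 14030 and 1961 of 13851 over all genes.

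**Figure D3:**
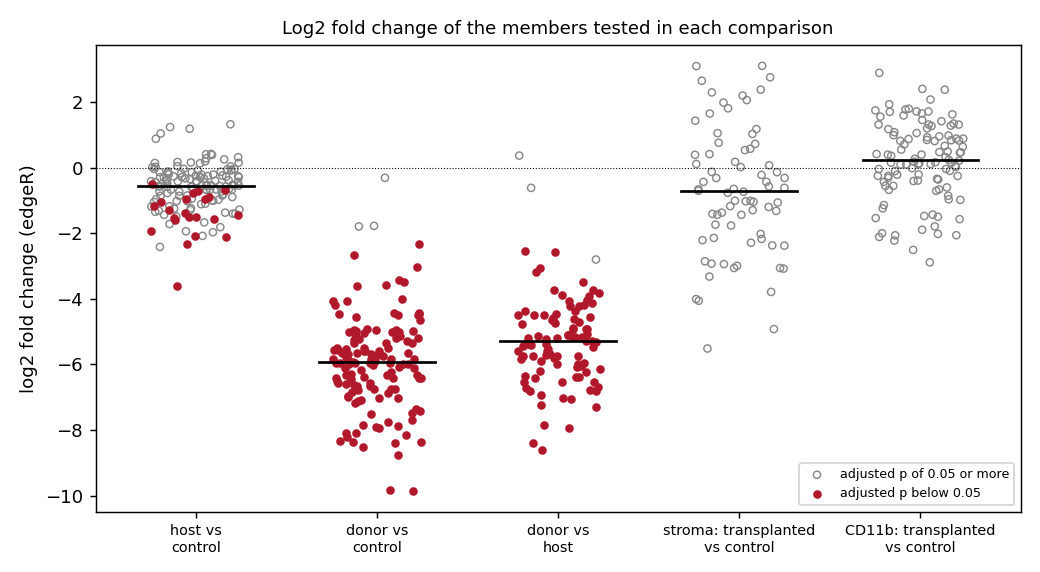
Log2 fold change (edgeR) of each member tested in each of 5 comparisons, 1 point per segment, with filled red points for an adjusted p under 0.05, open points for the rest and a black bar at the median. The medians lie at −0.57 for host against control, −5.91 for donor against control and −5.30 for donor against host, and no point is filled for stroma or CD11b+ cells.

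Some segments with many counts over the wild-type libraries together were all but absent in donor cells. Igkv1-122 had 1032 counts over the control libraries, 690 of them in mouse N283 alone, and 0 in the 7 donor libraries together. This puts it at least 307-fold lower when 3 counts over the donor group are taken as the limit of detection. Igkv3-7 had 2005 control counts and 1 donor count, a ratio of 1791 with a 95% counting interval of 321 to 70720. Igkv4-80 and Igkv13-85, both at 0 donor counts, were at least 121-fold and at least 96.2-fold lower than in control cells. Against host cells, Igkv13-85 was at least 115.5-fold lower, and Igkv12-41, with 635 host counts and 1 donor count, had a ratio of 636 with a counting interval of 114 to 25120. Over the 22 members at 0 in donor cells the bounds against control ran from 11.9-fold to 307-fold, with a median of 46.9. These limits and intervals cover counting error only.

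Other members showed the same direction. Iglv1 was counted 4 to 23 times in each donor library and 195 to 601 counts in the host libraries. Ighv1-9 had 0 to 4 donor counts and 41 to 1165 host counts, a log2 change of −7.30 ± 0.90 (SE) with an edgeR adjusted p of 2.21e-05. With so few donor counts the size of this change is uncertain. Igkv5-43 was lower by −7.23 ± 0.60 (edgeR adjusted p = 3.7e-07). Of the 92 members lower than in host cells, 8 are at least 98% identical to another segment, and Igkv5-43 is among these 8.

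The exceptions in both donor comparisons were 3 segments, of which 2 rested on 1 library. Igkv6-14 was counted 104 times in the donor library of mouse N005, 0 or 1 times in the other donor libraries and 4 to 34 times in host libraries. Its log2 fold change against host was −0.62 (edgeR adjusted p = 0.741), and without N005 it was −5.21 and passed. Ighv5-9-1 was counted 99 times in the same N005 library, 0 to 3 times in the other donor libraries and 3 to 164 times in host libraries, with −2.80 against host (edgeR adjusted p = 0.0522). Without N005 this became −6.69, and with the animal as a block −3.32, and it passed in both. Against control cells the 2 segments stood at −1.79 (edgeR adjusted p = 0.104) and −1.78 (adjusted p = 0.118), and without N005 at −6.33 and −5.69, where both passed. These 2, a kappa and a heavy segment, held 15.8% and 15.0% of the member counts of that donor library. In the host library of the same mouse they had 34 and 94 counts, and in its stroma 1 and 19.

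The third exception was the pseudogene Ighv1-41, whose level did not follow the summed level of the other 171 members. It was counted 10 to 21 times in control libraries (median 12.5), 4 to 15 times in host libraries (median 8) and 5 to 17 times in donor libraries (median 11), so all 3 groups overlapped. In CPM these were 0.772 ± 0.195 (SD, n = 8), 0.488 ± 0.189 (SD, n = 7) and 0.626 ± 0.176 (SD, n = 7). The log2 fold change of donor cells was −0.31 against control (edgeR adjusted p = 0.28) and 0.37 against host (edgeR adjusted p = 0.349). Its share of member counts was 0.0415% to 0.0834% in control cells and 1.31% to 11.3% in donor cells. In CD11b+ cells it stood at 228, 245 and 253 counts in the control mice (6.12 CPM ± 0.796, SD, n = 3) and at 133, 146 and 249 in the transplanted mice (4.41 ± 1.40, SD, n = 3), where it was the largest segment in 2 of the control libraries. Its 329-base transcript has a stop codon in frame with its first ATG at base 160, counted from the start of the transcript. The pseudogene Ighv8-10 departed from the total in part. It stood at 1.592 CPM in CD11b+ control cells, 1.395 in control CD45.1+ cells and 0.1194 in donor cells. Its mean share was 0.12% in control CD45.1+ and 0.7243% in donor cells. The pseudogenes Ighv1-2 and Igkv4-77 stood at 0.01877 and 0.03753 CPM in CD11b+ control cells, against 0.3845 and 0.3798 in control CD45.1+ cells.

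**Figure D4:**
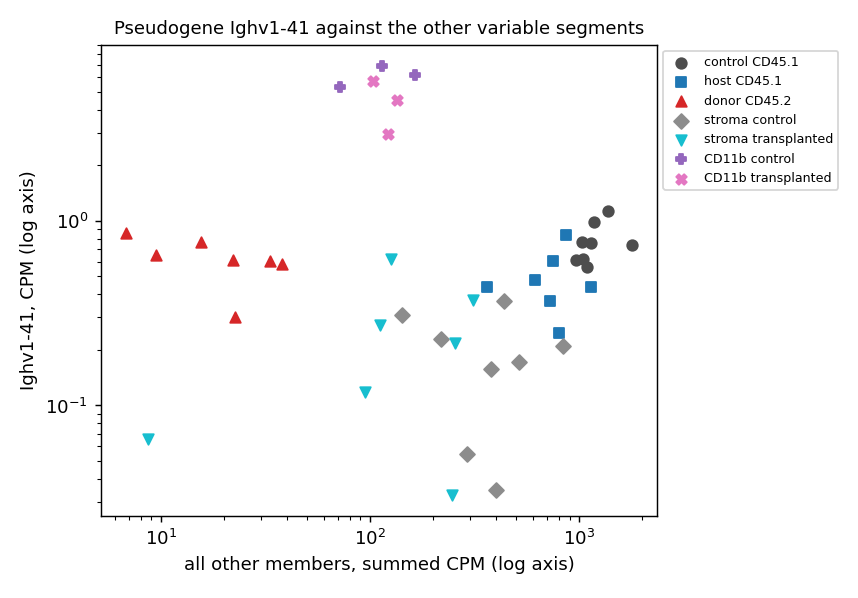
Level of the pseudogene Ighv1-41 against the summed level of the other 171 members, both in CPM on log axes, 1 point per library. Donor libraries lie far to the left at 0.300 to 0.864 CPM of Ighv1-41, level with host and control libraries, and the 6 CD11b+ libraries lie above all others.

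The other genes of the lineage separated donor from host cells as well. All 12 tested constant-region and joining-chain genes were lower in donor cells (median log2 fold change −4.86), from Ighg3 at −7.43 to Ighm at −3.19 with Igkc at −5.32 and Jchain at −5.33. Of 12 recombination and early B-cell genes 9 were lower (median −3.15), among them Pax5 (−4.01) and Rag1 (−3.61), the recombinase subunit that cuts the segments. Of 12 mature B-cell genes 11 were lower (median −3.76). Of 15 plasma cell genes 7 were lower (median −0.16), whereas Xbp1, the secretory factor that many other cells also express, stood at −0.01 (edgeR adjusted p = 0.949). All 6 T-cell markers were lower too, with summed levels of 2.44 to 5.11 CPM in donor against 35.9 to 99.5 CPM in host libraries. The segments were thus not the only lymphoid RNA that was scarce in donor cells.

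Single segments dominated some libraries and not others. For each segment only the library of the group with its highest share was considered. A spike was defined there as at least 5% of the library's member counts and at least 10 times the median share of the group's other libraries. Further libraries of the group in which the same segment was also high were not counted. There were 6 spikes in 4 of the 8 control libraries, 0 in the 7 host libraries and 9 in 5 of the 7 donor libraries, of which 3 were in N204. Stroma held 35 in all 8 control libraries and 23 in all 7 libraries of transplanted mice. In donor libraries a spike can rest on as few as 20 counts.

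Control mouse N280 carried spikes in both of its fractions. Its control CD45.1+ library had 3513 counts of Igkv17-127, where the other control libraries had 61 to 147, and 2303 counts of Ighv8-8, where the others had 61 to 226. These made up 13.8% and 9.02% of its member counts. The stroma library of the same mouse had 6789 and 1866 counts of the same 2 segments, 42.2% and 11.6% of its members. Both segments were thus among the 3 leading segments of each fraction.

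**Figure D5:**
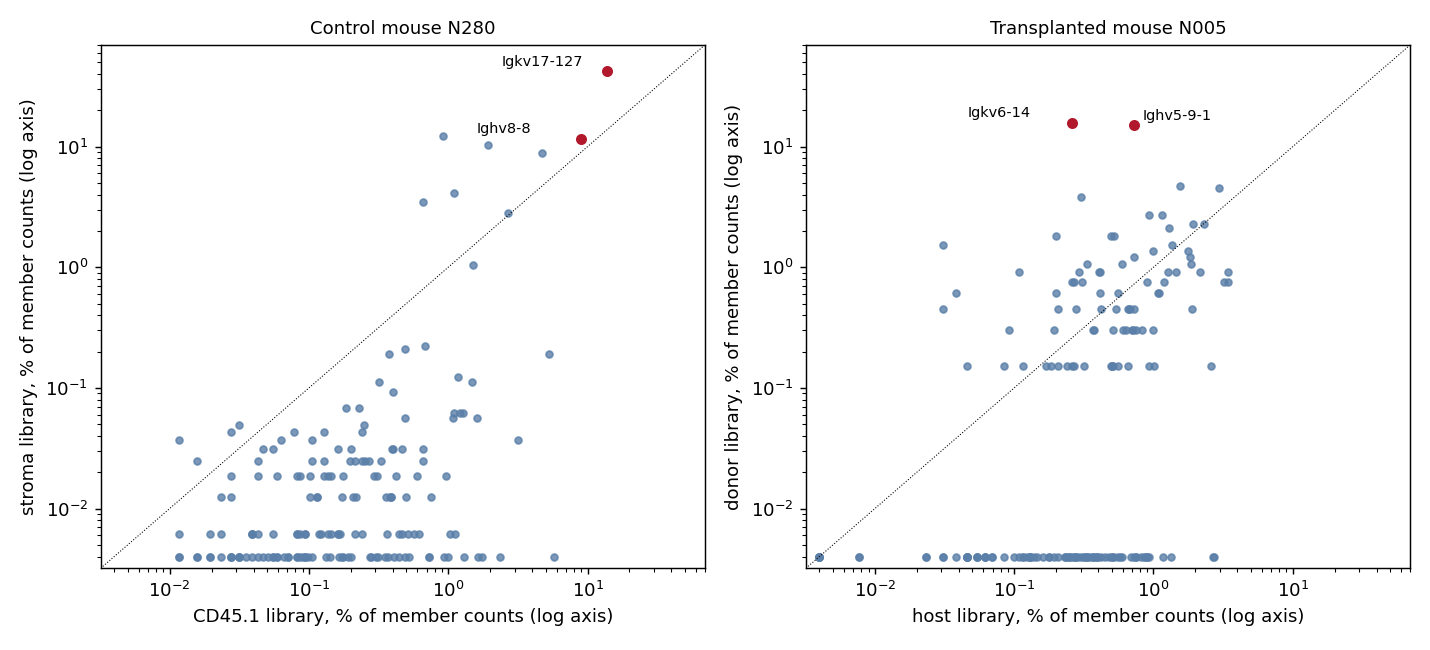
Percent of member counts of each segment in 2 libraries of the same mouse on log axes, for control mouse N280 (CD45.1+ against stroma, left) and transplanted mouse N005 (host against donor, right). Segments at 0 are drawn at 0.004%, and the dotted line marks equal shares. Igkv17-127 and Ighv8-8 are high in both fractions of N280, and Igkv6-14 and Ighv5-9-1 are high in the donor library of N005 alone.

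Sharing between fractions of a mouse was partial. Igkv19-93 was the first segment in both fractions of control mouse N002, with 8.80% and 20.4%, and Igkv3-4 held 7.69% of the CD45.1+ members and 40.9% of the stroma members of control mouse N051. In contrast, Igkv1-88 had 1912 counts in the CD45.1+ library of N093 and 12 in its stroma. Of the 8 control stroma libraries, 3 had a largest segment that was at its highest control CD45.1+ share in the same mouse. Among the 7 transplanted mice this held for 2 stroma libraries against host cells, for 3 against donor cells, and for 3 donor libraries against host cells. By the cosine similarity of all 172 shares, the control library most like a stroma library was that of the same mouse in 5 of 8 cases, with 0.792 for N280 and 0.162 for N208 as the extremes among those 5. For stroma against host it was 3 of 7 and for donor against host 3 of 7.

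By mean effective number, stroma had a much more uneven set of segments than any hematopoietic sort. Single libraries overlapped, since stroma reached 24.2 while donor library N269 had 16.8 and CD11b+ control library N128 had 17.9. Stroma libraries were made with a low-input kit, unlike the control, host and donor libraries. A difference of the sort therefore cannot be told apart from one of the library method. The members took 0.0143% to 0.0834% of counts in control stroma (median 0.0390%) and 0.000870% to 0.0311% in stroma of transplanted mice (median 0.0126%). Of the 7 values of transplanted mice 4 lay below every control value, and the ranges overlapped. The means were 0.0402% ± 0.0212 (SD, n = 8) and 0.0165% ± 0.0108 (SD, n = 7), a ratio of 0.410 of transplanted to control, or 0.475 without N269, the mouse with the lowest value. The effective number was 3.32 to 12.0 in control and 4.13 to 24.2 in transplanted stroma, with means of 6.80 ± 2.94 (SD, n = 8) and 11.6 ± 6.95 (SD, n = 7). The highest of these was N269, which had only 532 member counts, and without it the ratio of the means was 1.40 in place of 1.70. Over the lambda segments alone, which leave little room for a difference, the ratio was 0.9986.

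Each stroma library had its own leading segments. Igkv6-15 had 14530 counts in control mouse N283, 53.4% of its members, and 3 to 98 counts in the other control stroma libraries. Igkv15-103 had 15338 counts in control mouse N208 and 2377 in transplanted mouse N279, with 28 or fewer in every other stroma library. In both mice the heavy segment Ighv7-1 was high as well, with 5415 and 1042 counts. The donor library of N279 had 20 counts of Igkv15-103, and the other 6 donor libraries had 0. Control mouse N093 had 4 leading stroma segments, 2 kappa (Igkv9-124 and Igkv14-126) and 2 heavy (Ighv1-53 and Ighv11-2), which together with the rest of its top 5 left few counts to other segments. The 5 largest segments held 72.7% ± 9.89 (SD, n = 8) of member counts in control stroma and 26.5% ± 7.25 (SD, n = 8) in control CD45.1+ cells.

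No member passed the test between the 2 stroma groups. Of 74 members tested by edgeR 0 passed, in a comparison in which 1.49% of all genes did, 1.03% as lower and 0.466% as higher. Ranges were apart for 0 of 172 members, where they were apart and lower for 0.630% of all genes and apart and higher for 0.176%, and 14 members had an unadjusted p under 0.05 (11 lower, 3 higher). The members with the smallest p were Igkv12-46 at −5.51 (edgeR adjusted p = 0.0739), Ighv8-8 at −4.92 (adjusted p = 0.238) and Ighv5-6 at −4.06 (adjusted p = 0.267) among the lower ones. Among the higher ones they were Ighv1-69 at 2.06 (edgeR adjusted p = 0.392), Igkv4-57 at 3.10 (adjusted p = 0.408) and Ighv5-4 at 2.29 (adjusted p = 0.543). Igkv12-46 had 10 to 2719 counts in control and 1 to 64 in transplanted stroma, so the groups overlapped. DESeq2 called 1 member, as lower, and 719 of 53343 genes.

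B-lineage RNA was present in the stroma sort although B220+ and CD45+ cells had been gated out. The 7 B-cell markers were all detected, with sums of 32.1 to 212.5 CPM in control and 22.5 to 478.8 CPM in transplanted stroma, and the 7 plasma cell markers with 403.8 to 532.9 and 181.8 to 482.9 CPM. Of the plasma cell sum in control stroma, Jchain gave 23.9 to 138.7 CPM and Mzb1 0.434 to 1.34 CPM. The rest came from the other listed markers, among them Xbp1, which many other cells also express. The sum is therefore not specific to plasma cells. Library N269 had the lowest member level (8.70 CPM), the lowest Igkc (4.58 CPM), the lowest Jchain (0.997 CPM) and the lowest B-cell marker sum of its group, while its plasma cell marker sum, 482.9 CPM, was the highest of its group. Other cell types moved between the stroma groups as well. The 6 erythroid markers summed to 964.6 to 3501 CPM in control and 2178 to 15070 CPM in transplanted stroma, and 3 of them passed as higher by edgeR. Of the 6 macrophage markers 3 also passed as higher, with sums of 122.7 to 485.0 and 78.5 to 343.4 CPM. Their part in the segment levels was not tested. None of 11 tested constant-region and joining-chain genes and none of 12 mature B-cell genes passed between the groups, with medians of −1.28 and 0.07. The lambda segment Iglv3 was at 0 in all 15 stroma libraries, while Iglv1 had 26 to 682 counts in them. The ratio of kappa to lambda counts averaged 85.1 ± 48.0 (SD, n = 8) in control and 49.1 ± 39.1 (SD, n = 7) in transplanted stroma.

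In CD11b+ cells, a myeloid sort in which antibody RNA is foreign to the sorted type, the members took 0.00770%, 0.0121% and 0.0170% of counts in the control mice and 0.0109%, 0.0125% and 0.0139% in the transplanted mice. These ranges overlapped and the means differed by a ratio of 1.011. The effective number was 17.9, 47.1 and 50.3 in control and 42.8, 48.6 and 65.1 in transplanted mice. The lowest value, in control mouse N128, came with 1442 counts of Igkv1-135, 20.6% of its members, where the other 2 control mice had 46 or fewer. B-cell markers summed to 35.9 to 98.4 CPM in control and 13.3 to 59.0 CPM in transplanted mice. Their part in the segment levels was not tested.

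No member passed in CD11b+ cells either. Of 108 members tested by edgeR 0 passed, and the share over all genes was 0%, with 9 members at an unadjusted p under 0.05 (4 lower, 5 higher). Ranges were apart and lower for 5 of 172 members, where this held for 6.97% of all genes, and apart and higher for 8, where it held for 17.5%. The lower members with the smallest p were Ighv8-10 at −1.50 (edgeR adjusted p = 0.272), Iglv3 at −2.22 (adjusted p = 0.29) and Igkv14-126 at −2.51 (adjusted p = 0.297). The higher ones were Ighv1-9 at 1.77 (edgeR adjusted p = 0.27), Ighv1-66 at 2.89 (adjusted p = 0.273) and Ighv5-4 at 2.37 (adjusted p = 0.273). DESeq2 called 0 members and 324 of 25759 genes. Without the transplanted mouse N187 edgeR called 2 members, both lower, and 28 of 15835 genes. With 3 mice in each group, small differences could not be resolved.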

How the data were processed

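RNA-seq libraries of sorted mouse bone marrow cells were analysed from the deposited gene tables. The counts deposited by the authors are whole reads per gene. The submitters' processing notes name STAR 2.7.3a, featureCounts of Subread 1.6.2, RSEM 1.3.3 and the GRCm39 build. The TPM values, a level per transcript length and library, are as deposited by the authors. The program behind the TPM table, whether counting used strand, and how the 2 sequencing runs of a stroma library were joined are not given in the sources used here. Per the labels' protocols, the control, host and donor libraries were made from poly-A RNA with strand kept, while a low-input kit served for stroma. Depth was 15713119 to 143228988 counts per library over 43 libraries.

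Counts were tested with edgeR 4.0.16 in R 4.3.3 (filterByExpr, TMM, quasi-likelihood test, sex as a covariate, Benjamini-Hochberg adjustment over all genes tested, threshold 0.05), 1 comparison at a time with its own groups, and with DESeq2 1.42.0 as an alternative. Replicates are separate mice. Shares, CPM, the inverse Simpson index, the expected number of segments in a fixed number of counts and the counts per constant-region count were computed from the counts in Python 3.11.15. Ratios of totals and diversity carry no test. The edgeR script was tested on simulated data. Host and donor libraries were paired by mouse. The correlation of their deviations from the group means, over 15221 genes, was 0.238 to 0.669 over the 7 mice. The main edgeR fit of donor against host did not use this pairing, and the fit with the mouse as a block did. The members and gene lists were chosen with earlier results of these data known. Members named are the 10 highest by mean control TPM, in each comparison up to 6 lowest and 6 highest among those past the threshold whose mean log2 CPM reached 0, or the 3 smallest p where none passed in a direction, the largest segment of a library, and the 3 members on each side of the minimum of 40 counts. Others named were chosen after their values were seen. Alternatives were DESeq2, other filters, no sex term, blocking on the day of euthanasia, blocking on the mouse, other diversity sizes and chains, and leaving out each library in turn. The day block had no sex term and used only libraries from days found in both groups compared, so several libraries were left out. Segment sequences, positions and biotypes came from GENCODE M21 on GRCm38, matched by gene identifier for 172 of 172 members. No GRCm39 sequence was used here.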

Additional observations from a re-analysis of the deposited data

Results flagged for a closer look

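Within groups of 7 or 8 libraries, 65 sets of values were examined for a library standing far from the others (Dixon's test at 95%). Such a library was found in 17. The sets were the levels of named segments and whole-library measures, among them the member share, the effective number and the constant-region ratio. Chance alone picks out about 1 in 20 groups when segments are not picked for their values. Many of these segments were named because they led 1 library, so the number found cannot be read against that rate. All 17 were high values of 1 segment in 1 mouse, and none was found among the whole-library measures.

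In control mouse N280, Igkv17-127 stood at 189.3 CPM in CD45.1+ cells and 122.8 CPM in stroma, and Ighv8-8 at 124.1 CPM and 33.76 CPM. This kappa and heavy pair stood apart in both fractions of the mouse. In the donor library of N005, Igkv6-14 stood at 6.037 CPM and Ighv5-9-1 at 5.747 CPM. In control mouse N093, Igkv1-88 stood at 110.3 CPM and Ighv5-16 at 77.74 CPM in CD45.1+ cells. Igkv8-27 stood at 62.55 CPM in control mouse N277.

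Control mouse N288 had Igkv5-39 at 251.8 CPM and Ighv12-3 at 4.048 CPM. Among host libraries, Ighv8-10 was at 0.7712 CPM in N269 and Igkv6-20 at 82.0 CPM in N032. Igkv15-103 stood apart in 3 groups, at 1.095 CPM in donor cells and 41.96 CPM in stroma of the same mouse, N279, and at 266.9 CPM in stroma of control mouse N208. Igkv6-15 was at 234.0 CPM in stroma of control mouse N283.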

How the results depend on the processing

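No alternative turned the direction of a named member that had passed. The number of members past the threshold for host against control was 22. It became 46 without a filter on low counts (43 lower, 3 higher) and 12 with a stricter one. Over all genes, 2312 of 14073 passed in the main fit, 2062 of 28966 without the filter and 2025 of 10977 with the stricter one. Leaving out each library gave 12 to 23 members, and 1527 to 2687 over all genes. For donor against control the 130 became 57 with the stricter filter and 115 to 136 with a library left out. Over all genes the 6360 of 13906 became 5358 of 10895 with the stricter filter, and 5730 to 6732 with a library left out. For donor against host the 92 became 160 with DESeq2, 165 without a filter and 30 with the stricter filter, and 91 to 120 with a library left out. Over all genes the 1928 of 13662 became 2721 of 29571, 2412 of 29571 and 1400 of 10785, and 1507 to 2554 with a library left out. With the mouse as a replicate block 93 members and 4605 of 13662 genes passed. Beyond Ighv5-9-1 that block changed no call named above. The filters changed how many members were tested. In stroma the count of 0 became 2 without a filter and 1 each with DESeq2, without the sex term and when the day of euthanasia was blocked. It stayed 0 with any library left out. Over all genes the 391 of 26191 became 395 of 53343, 719 of 53343, 356 of 26191 and 250 of 25028 in those settings, in that order. In CD11b+ cells leaving out a library gave 0 to 2, with 2 without N187, where 28 of 15835 genes passed. DESeq2 called 0 members there and 324 of 25759 genes. Day blocks, fitted only on libraries from days found in both groups, gave 17 for host and 119 for donor against control. Over all genes they gave 1752 of 13990 and 6335 of 13818.

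Diversity and ratio results moved mainly with the chain used. The donor-to-host ratio of effective numbers was 0.5611 and became 0.8794 for lambda segments alone. With lambda alone, ratios to control above 1 fell below it, from 1.424 to 0.9592 in host cells, from 1.705 to 0.9986 in stroma and from 1.358 to 0.9028 in CD11b+ cells. Ratios near 1 also crossed it: the CD11b+ share (1.011) fell as low as 0.8516 without N168 and the CD11b+ expected number (0.9608) rose to 1.069 without N129. In host cells the expected number (1.034) fell to 0.9924 and the constant-region ratio (1.008) to 0.9907. The expected number of segments, donor over control, was 0.712 of 500 counts, 0.8131 at 100 counts and 0.7744 at the lowest total, and donor over host it was 0.6883 and 0.756 at 100 counts. Members per constant-region count moved from 0.427 to 0.991 for donor over control and from 0.4237 to 1.0 for donor over host when kappa segments were set over Igkc. Lambda segments over lambda constant genes gave 1.121 for host over control, 1.391 for stroma and 2.223 for CD11b+ cells, against 1.008, 0.8146 and 1.164. For control stroma, 5 mice had their own CD45.1+ library as the most alike by cosine similarity and 2 by Spearman correlation. The causes were not tested.

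Of 729 alternatives for 42 results on named members, 676 kept direction and call, 35 lost the call and 18 gained it. Settings in which a member was not tested are not among the 729. With 151 to 660 member counts per donor library, absence of a segment there limits its level and does not show that it was not used.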

Other observations

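Most counts in the CD11b+ libraries were even numbers. Among entries with 1 to 50 counts, 79.5% to 86.0% were even in the 6 CD11b+ libraries, against 40.5% to 46.3% in the other 37 libraries. With the CD11b+ counts halved, an alternative chosen after seeing the data, 0 members passed by edgeR, the ratio of effective numbers between transplanted and control mice was 1.357, and the ratio of segments expected in a fixed number of counts was 0.9554.

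Segment families differed in usage. The 4 Ighv14 members took 1.05% ± 0.65 (SD, n = 8) of member counts in control and 2.58% ± 1.41 (SD, n = 7) in host cells. Igkv4, with 20 members, took 8.48% in control, 8.73% in host and 7.65% in donor cells. These shares were not tested.

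Segments outside the 172 members held 0.312% to 0.865% of all segment counts in control libraries, 0.602% to 7.43% in donor libraries and 2.19% to 26.8% in stroma of transplanted mice, with the highest share in N269.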
